A study of Mus musculus with 6 samples.

Results

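The 9 genes described here encode neurotrophic growth factors and the receptors that receive them: the ligands Bdnf, Ntf3 and Gdnf, and the receptors Ngfr, Ntrk2, Ntrk3, Gfra1, Gfra2 and Ret. They were taken by name from the 26814 gene symbols of the count table, and all 9 were among the 15009 genes that passed the filter on low counts (1 CPM, the count scaled to the size of the library, reached in 3 or more libraries). RNA-Seq was performed on the top lip of adult female mice aged 2 to 6 months. The 3 KO mice were Gtf2ird1 knockouts (the Gtf2ird1 tm1Hrd line), the 3 WT mice were wild type, both genotypes were on C57BL/6J, and each mouse gave 1 library. The methods name no Cre driver and no sorting of cells, so a library holds RNA of the whole piece of lip.

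Neurotrophins are secreted proteins that keep sensory neurons alive and guide their endings into the skin. Each binds a Trk receptor tyrosine kinase, and all of them bind the p75 receptor, which Ngfr encodes. BDNF binds TrkB (Ntrk2), and neurotrophin 3 binds TrkC (Ntrk3). The GDNF family works through a pair of proteins: a GFRα co-receptor anchored to the membrane binds the ligand, and the pair then engages the kinase RET. In skin these genes are known from nerve endings and Schwann cells, from the epithelium and papilla of the hair follicle, and from keratinocytes, and GDNF family members are also known from muscle and the nerves that supply it.

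Library totals ranged from 20164081 to 29491767 counts, and a count of 0 would allow a level of up to 3 counts, or 0.0986 to 0.154 CPM depending on the library. Gtf2ird1, the targeted gene, was not lower in the libraries labelled KO. It had 78.2, 70.2 and 70.7 CPM in WT1, WT2 and WT3 and 166, 162 and 144 CPM in KO1, KO2 and KO3, a log2 fold change of 1.11 ± 0.13 (SE, edgeR quasi-likelihood test, adjusted p = 0.0018), and it shares 194 exon bases with Gm42882 on the opposite strand. Counts over a whole gene do not show whether the transcript was intact, and every direction below is therefore that of the libraries labelled KO. Over all tested genes, 657 were higher (4.38% of those tested) and 314 were lower (2.09%). KO3 stood apart from the other KO libraries: without it 2496 genes were higher and 2395 lower, whereas without any one of the other libraries 208 to 476 were higher and 18 to 62 lower. Log2 fold changes are KO over WT, errors of fold changes are standard errors of the fit, and a gene is called where the quasi-likelihood adjusted p is under 0.05.

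Of the 9 genes, 3 receptors were called lower in the libraries labelled KO (Gfra2, Ngfr and Ret) and 1 receptor was called higher (Ntrk2), against 2.09% and 4.38% of all tested genes. Of the 3 ligands 0 were called by edgeR's quasi-likelihood test, 0 by its exact test and 0 by DESeq2, and 1 (Ntf3) had an unadjusted p under 0.05, as did 29.6% of all tested genes. The log2 fold changes of the 9 genes had a median of -0.50, where the median of all tested genes was -0.02. For 5 of the 9 genes (Ntf3, Ngfr, Ntrk3, Gfra2 and Ret) the highest KO value was below the lowest WT value, an arrangement found for 18.1% of tested genes. For Ntrk2 alone among the 9 every KO value exceeded every WT value, an arrangement found for 13.5% of tested genes, and 31.5% of tested genes had non-overlapping values in one direction or the other. The summed level of the 9 genes overlapped between genotypes, at 276.1 to 300.7 CPM in WT and 247.8 to 312.8 CPM in KO, and Ntrk2 was the most counted of the 9.

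**Figure D1:**
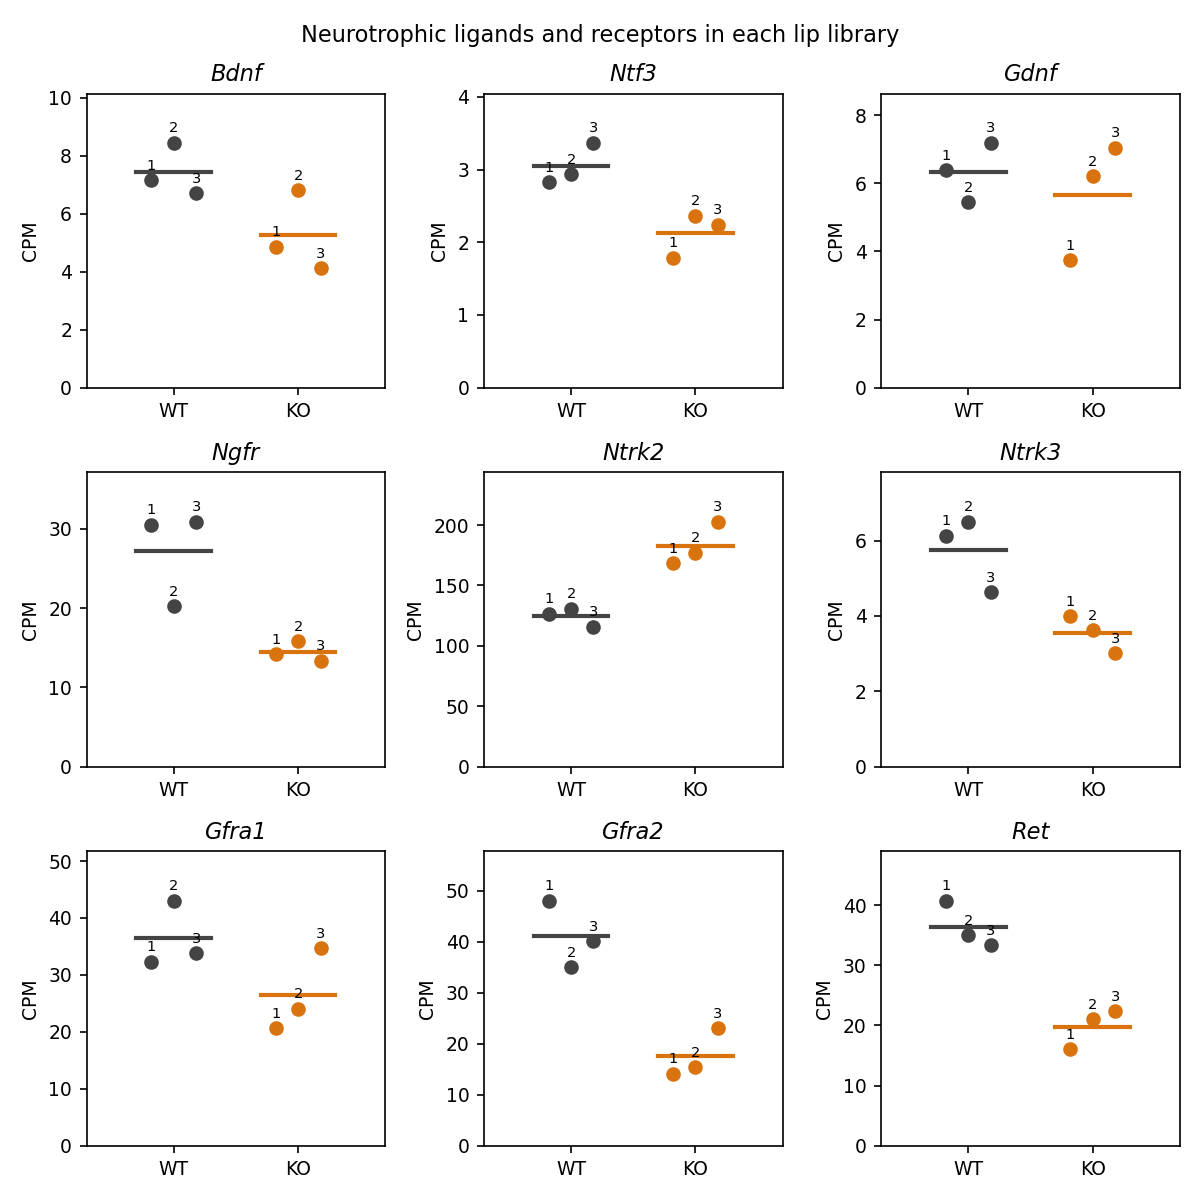
Level in CPM (y axes start at 0) of each of the 9 genes in the 3 WT (grey) and 3 KO (orange) libraries, with the replicate number beside each point and the mean as a bar. The KO points of Ntf3, Ngfr, Ntrk3, Gfra2 and Ret lie below every WT point, those of Ntrk2 lie above, and those of Bdnf, Gdnf and Gfra1 overlap the WT points.

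The sequences just upstream of Ngfr and Ntrk2 are shown because these receptors moved in opposite directions. They come from RefSeq promoter windows on GRCm38.p6 and are written 5′ to 3′ on the strand of the gene. Capitals mark GGGCGG, the core of the GC box bound by Sp family factors. The Ngfr stretch covers chr11:95587736-95587948 on the minus strand (213 bases, 70.9% G or C, ending 38 bases before the RefSeq start), and the Ntrk2 stretch covers chr13:58806319-58806568 on the plus strand (250 bases, 62.8% G or C). The median over the windows of 32851 start sites was 52.4%.
Ngfr: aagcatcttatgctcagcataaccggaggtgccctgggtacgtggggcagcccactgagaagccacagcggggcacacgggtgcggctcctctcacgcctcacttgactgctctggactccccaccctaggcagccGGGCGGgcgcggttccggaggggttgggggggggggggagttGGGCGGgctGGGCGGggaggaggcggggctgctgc
Ntrk2: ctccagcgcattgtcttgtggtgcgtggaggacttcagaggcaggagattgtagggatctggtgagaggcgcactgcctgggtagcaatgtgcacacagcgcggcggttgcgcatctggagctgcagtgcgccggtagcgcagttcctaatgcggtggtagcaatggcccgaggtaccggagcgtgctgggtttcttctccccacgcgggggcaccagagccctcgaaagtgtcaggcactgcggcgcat

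The Ngfr stretch held 3 GC boxes and the Ntrk2 stretch held 0. Over the 250 bases before each start, on both strands, GGGCGG was present at 32.7% of the 32851 starts and at 5 of the 14 starts annotated for the 6 genes that matched the table (Bdnf, Ntf3, Gdnf, Ngfr, Ntrk2 and Gfra1). The 5 starts belonged to Bdnf, Ngfr and Ntf3. GGATTA, the core sequence known to be bound by GTF2IRD1, was present at 6.25% of all starts and at 0 of the 14. TATAAA was present at 12.4% of all starts and at 1 of the 14, a Gdnf start. These letter matches describe the windows and say nothing of binding. Whether they bear on the direction of a change was not tested, and Gfra2, Ret and Ntrk3 had no window.

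Among the ligands, Bdnf (chr2:109674700-109727007, plus strand), the ligand of TrkB, had 7.15, 8.46 and 6.70 CPM in WT1, WT2 and WT3 and 4.86, 6.81 and 4.12 CPM in KO1, KO2 and KO3. KO2 lay inside the WT range, and the log2 fold change was -0.49 ± 0.23 (edgeR adjusted p = 0.19). Bdnf shares 896 exon bases with Gm45346 on the opposite strand. The strand setting of the counting is not stated, so how reads in these shared bases were counted is not known. Ntf3 (chr6:126101412-126166910, minus strand), which encodes neurotrophin 3, had 2.83, 2.93 and 3.37 CPM in the WT libraries and 1.79, 2.37 and 2.24 CPM in the KO libraries. The genotypes did not overlap, but these levels rest on 35 to 78 counts per library and the difference missed the threshold (log2 fold change -0.50 ± 0.21, edgeR adjusted p = 0.16). Gdnf (chr15:7810846-7837575, plus strand), the founding ligand of its family, had 6.39, 5.44 and 7.20 CPM in the WT libraries and 3.74, 6.21 and 7.04 CPM in the KO libraries. Only KO1 lay below the WT range, and the log2 fold change of -0.16 ± 0.26 (edgeR adjusted p = 0.70) became 0.13 without KO1.

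Ngfr (chr11:95568818-95587735, minus strand), the p75 receptor shared by all neurotrophins, had 30.6, 20.2 and 30.9 CPM in WT1, WT2 and WT3. In KO1, KO2 and KO3 it had 14.2, 15.8 and 13.4 CPM. WT2 was the lowest WT library and still lay above every KO library. The mean was 27.2 ± 6.07 CPM (SD, n = 3) in WT and 14.5 ± 1.23 CPM (n = 3) in KO, and Ngfr fell by 46.9% in the fit (log2 fold change -0.91 ± 0.20, edgeR adjusted p = 0.035). The call was lost without WT1 (log2 fold change -0.83), without WT3 (-0.82), without KO1 (-0.83) and without KO2 (-0.92), with edgeR adjusted p from 0.137 to 0.147, and stood without WT2 and without KO3.

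Ntrk2 (chr13:58806569-59133970, plus strand), which encodes TrkB, was the only one of the 9 genes called higher. It had 127, 131 and 116 CPM in WT1, WT2 and WT3 and 168, 177 and 203 CPM in KO1, KO2 and KO3. The spread was small in both genotypes (124 ± 7.64 CPM in WT and 183 ± 18 CPM in KO, SD, n = 3 each), and every KO library lay above the WT range. The increase was 46.9% (log2 fold change 0.55 ± 0.13, edgeR adjusted p = 0.046). The adjusted p lay close to the threshold, and the call was lost under 4 of the 8 alternatives of tool, scaling, filter and block, among them scaling by library totals alone, no filter, and at least 10 counts in every library (edgeR adjusted p = 0.070, 0.062 and 0.052, within a range of 0.0013 to 0.070 over the 8). It stood with 1 left-out library, KO3, and without any one of the other 5 libraries the log2 fold change ranged from 0.50 to 0.67 with edgeR adjusted p from 0.068 to 0.18. Ntrk2 has 10 annotated transcripts, 7 of them coding, which include forms with and without the kinase domain, and counts over the gene do not separate them.

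Ntrk3 (chr7:78175959-78738012, minus strand), which encodes TrkC, had 6.13, 6.50 and 4.63 CPM in the WT libraries and 3.99, 3.62 and 3.02 CPM in the KO libraries. The genotypes did not overlap, and the log2 fold change was -0.70 ± 0.21 (edgeR quasi-likelihood test, adjusted p = 0.083). edgeR's exact test, which called 7.68% of tested genes lower and 7.65% higher, called Ntrk3 lower as well (adjusted p = 0.040), and so did DESeq2 (0.045), which called 7.61% of tested genes lower and 9.5% higher, in a range of 0.040 to 0.12 over the 8 alternatives. TrkC transcripts were thus lower in every KO library, by a difference that passed these tests and not the quasi-likelihood test.

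Gfra2 (chr14:70890120-70979838, plus strand), the co-receptor that binds neurturin, had the lowest log2 fold change of the 9 genes. Its level was 48.1, 35.0 and 40.1 CPM in WT1, WT2 and WT3 and 14.1, 15.4 and 23.0 CPM in KO1, KO2 and KO3. KO3 was the highest KO library, and the lowest WT library lay well above it. The mean was 41.1 ± 6.57 CPM in WT and 17.5 ± 4.80 CPM in KO (SD, n = 3 each), and Gfra2 fell by 57.3% in the fit (log2 fold change -1.23 ± 0.22, edgeR adjusted p = 0.017). The call was made under all 8 alternatives of tool, scaling, filter and block (adjusted p 2.5e-05 to 0.028). It was lost without WT1 (log2 fold change -1.10), without WT3 (-1.25), without KO1 (-1.04) and without KO2 (-1.09), with edgeR adjusted p from 0.065 to 0.12.

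Ret (chr6:118151745-118197718, minus strand), the kinase that all GFRα co-receptors engage, moved in the same direction. It had 40.8, 35.0 and 33.4 CPM in WT1, WT2 and WT3 and 16.0, 21.0 and 22.4 CPM in KO1, KO2 and KO3. The genotypes were well separated, with means of 36.4 ± 3.88 CPM in WT and 19.8 ± 3.34 CPM in KO (SD, n = 3 each), and Ret fell by 45.5% in the fit (log2 fold change -0.88 ± 0.17, edgeR adjusted p = 0.025). The call was lost without any one library other than KO3, with log2 fold changes from -0.94 to -0.68 and edgeR adjusted p from 0.072 to 0.13, and without KO3 the adjusted p was 0.0039.

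Gfra1 (chr19:58235604-58455909, minus strand), the co-receptor that binds GDNF, had 32.3, 43.1 and 33.8 CPM in the WT libraries and 20.7, 24.1 and 34.7 CPM in the KO libraries. KO1 and KO2 lay below every WT library and KO3 lay inside the WT range, and the difference was not called (log2 fold change -0.46 ± 0.22, edgeR adjusted p = 0.20). It was called without KO3 (log2 fold change -0.70, edgeR adjusted p = 0.015). Gfra1 shares 416 exon bases with the antisense gene Gm16277. The ratio of Gfra1 to Gfra2 reads within a library was 0.673, 1.23 and 0.844 in WT1, WT2 and WT3 and 1.46, 1.56 and 1.51 in KO1, KO2 and KO3. The ratio was thus above every WT value in each KO library, KO3 included.

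Other ligands of both families were read from the same fit. Of 5 listed, 3 were tested, 1 was called higher and 0 lower. Artn, which encodes artemin, the ligand of GFRα3, had 1.20, 0.723 and 0.944 CPM in WT1, WT2 and WT3 and 7.62, 9.21 and 10.4 CPM in KO1, KO2 and KO3. The WT levels rest on 17 to 33 counts per library, and Artn passed the filter on low counts only through the KO libraries. Every KO library held several times the WT level (9.40-fold, log2 fold change 3.23 ± 0.25, edgeR adjusted p = 0.00022). Artn was called under all 8 alternatives and without any one of the 6 libraries.

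Ntf5, which encodes neurotrophin 4, the other ligand of TrkB, had 6.04 to 7.62 CPM in WT and 4.09 to 4.83 CPM in KO (log2 fold change -0.60 ± 0.18, edgeR adjusted p = 0.082). Nrtn, which encodes neurturin, the ligand of GFRα2, had 9.14 to 15.0 CPM in WT and 7.0 to 7.83 CPM in KO (log2 fold change -0.76 ± 0.22, edgeR adjusted p = 0.074). Neither gene overlapped between genotypes and neither passed the quasi-likelihood test. The exact test and DESeq2 each called both lower, with adjusted p of 0.048 and 0.049 for Ntf5 (range 0.048 to 0.15 over the 8 alternatives) and of 0.022 in both for Nrtn (0.022 to 0.096). Pspn, which encodes persephin, stayed under the filter, with 0.170 to 0.363 CPM in WT and 0.526 to 1.54 CPM in KO (exact permutation test, 2-sided, p = 0.10, the smallest that 3 against 3 libraries can give). Gdf15, a distant member of the family, had at most 0.399 CPM in any library. Artn thus rose, while Bdnf, Ntf3, Gdnf, Ntf5 and Nrtn had negative log2 fold changes that missed the threshold of the quasi-likelihood test.

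**Figure D2:**
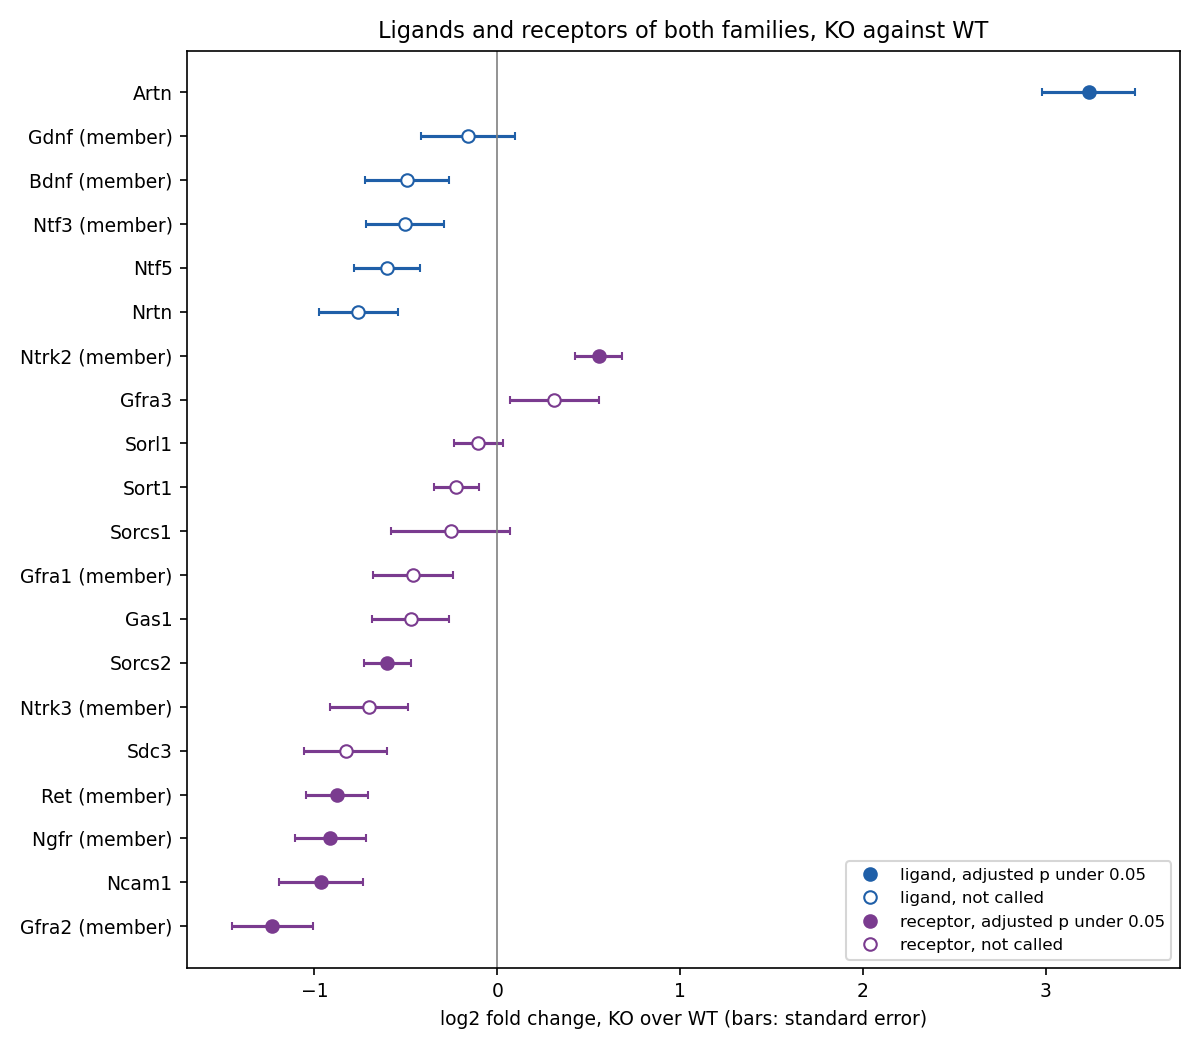
Log2 fold change, KO over WT, of tested ligands (blue) and receptors (purple) of both families, with standard errors as bars and filled points for an edgeR adjusted p under 0.05 (the 9 genes described here carry the word member). Artn (3.23) lies far to the right, Ntrk2 (0.55) is the only filled receptor right of 0, and Gfra2 (-1.23) lies farthest left.

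Of 11 other receptors and co-receptors listed, 8 were tested, 2 were called lower and 0 higher, with a median log2 fold change of -0.36. Sorcs2, a sortilin-related receptor that pairs with p75, had 34.9 to 39.9 CPM in WT and 23.7 to 25.5 CPM in KO (log2 fold change -0.60 ± 0.13, edgeR adjusted p = 0.036). Ncam1, an adhesion molecule that also serves as a GDNF receptor, had 10.5 to 11.5 CPM in WT and 4.41 to 7.59 CPM in KO (log2 fold change -0.96 ± 0.23, edgeR adjusted p = 0.048), and it shares 417 exon bases with Gm11149 on the opposite strand. Of the 8 alternatives of tool, scaling, filter and block, 6 called Sorcs2 (adjusted p 0.0014 to 0.086 over the 8). Ncam1 was called under 4 of them (0.0039 to 0.059). Each of these 2 genes stayed called without KO3 and lost its call without any one of the other 5 libraries. The edgeR adjusted p was then 0.073 to 0.18 for Sorcs2 and 0.098 to 0.23 for Ncam1. Gfra3, the artemin co-receptor, had 3.95 to 5.62 CPM in WT and 4.86 to 7.96 CPM in KO (log2 fold change 0.31 ± 0.24, edgeR adjusted p = 0.41). Sort1, the proneurotrophin receptor sortilin, had a log2 fold change of -0.22 ± 0.12 (edgeR adjusted p = 0.25). Sdc3, a heparan sulfate proteoglycan that binds GDNF family ligands, had -0.83 ± 0.23 (0.069), and Gas1, which binds RET, had -0.47 ± 0.21 (0.17). Sorl1 had -0.10 ± 0.13 (0.63) and Sorcs1 had -0.25 ± 0.33 (0.62). Gfra4 and Sorcs3 stayed under the filter.

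Ratios of reads within a library, 9 in all, set ligands and receptors beside each other without reference to library size. Artn reads per Gfra3 read were 0.223, 0.183 and 0.168 in the WT libraries and 1.57, 1.60 and 1.30 in the KO libraries, a 7.80-fold higher mean. Bdnf reads per Ntrk2 read went the other way, at 0.0565, 0.0646 and 0.0578 in WT and 0.0289, 0.0384 and 0.0203 in KO. Ntrk2 reads per Ngfr read were 3.75 to 6.47 in WT and 11.2 to 15.1 in KO. These 3 ratios and that of Gfra1 to Gfra2 did not overlap between genotypes. For Ntrk2 to Ngfr this followed from the values above, since Ntrk2 was higher and Ngfr lower in every KO library. The other ratios are likewise built from values of genes already given. None of them adds separate evidence. Each of the 4 ratios without overlap reached an exact permutation p of 0.1 (2-sided), the smallest the design allows, or 0.225 after Benjamini-Hochberg adjustment over the 9 ratios. The ratios of Gdnf to Gfra1, Nrtn to Gfra2, Ntf3 to Ntrk3, Gfra1 to Ret and Gfra2 to Ret overlapped between genotypes (exact permutation p from 0.2 to 0.8). Gfra2 and Ret, for example, had a ratio of 1.0 to 1.20 in WT and 0.734 to 1.03 in KO.

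Divided by gene length, the levels of the 9 genes can be set side by side. In WT the order, in CPM per kilobase of the union of annotated exons, was Gfra2 (11.6 ± 1.86), Ngfr (7.91 ± 1.76), Gfra1 (6.65 ± 1.06), Ntrk2 (6.45 ± 0.396), Ret (5.38 ± 0.574), Ntf3 (1.78 ± 0.168), Gdnf (1.73 ± 0.239), Bdnf (1.20 ± 0.147) and Ntrk3 (0.191 ± 0.0329), as mean ± SD of 3 libraries. The receptors other than Ntrk3 thus all lay above the ligands. Library values of neighbours overlapped between Ngfr and Gfra1, Gfra1 and Ntrk2, Ntrk2 and Ret, and Ntf3 and Gdnf, and did not overlap between the other neighbours. In KO, Ntrk2 came first (9.48 ± 0.931), followed by Gfra2 (4.95 ± 1.36), Gfra1 (4.83 ± 1.33), Ngfr (4.20 ± 0.358), Ret (2.93 ± 0.494), Gdnf (1.54 ± 0.468), Ntf3 (1.24 ± 0.177), Bdnf (0.846 ± 0.223) and Ntrk3 (0.117 ± 0.0163). Neighbours overlapped between Gfra2 and Gfra1, Gfra1 and Ngfr, Gdnf and Ntf3, and Ntf3 and Bdnf. The union of exons spans 19.3 kilobases for Ntrk2 and 30.2 for Ntrk3, longer than any one coding transcript of either. With the longest coding transcript as the length, Ntrk2 came first in WT too (14.2 CPM per kilobase), although its values overlapped those of Gfra2 (11.8), and Ntrk3 stayed last (0.292).

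**Figure D3:**
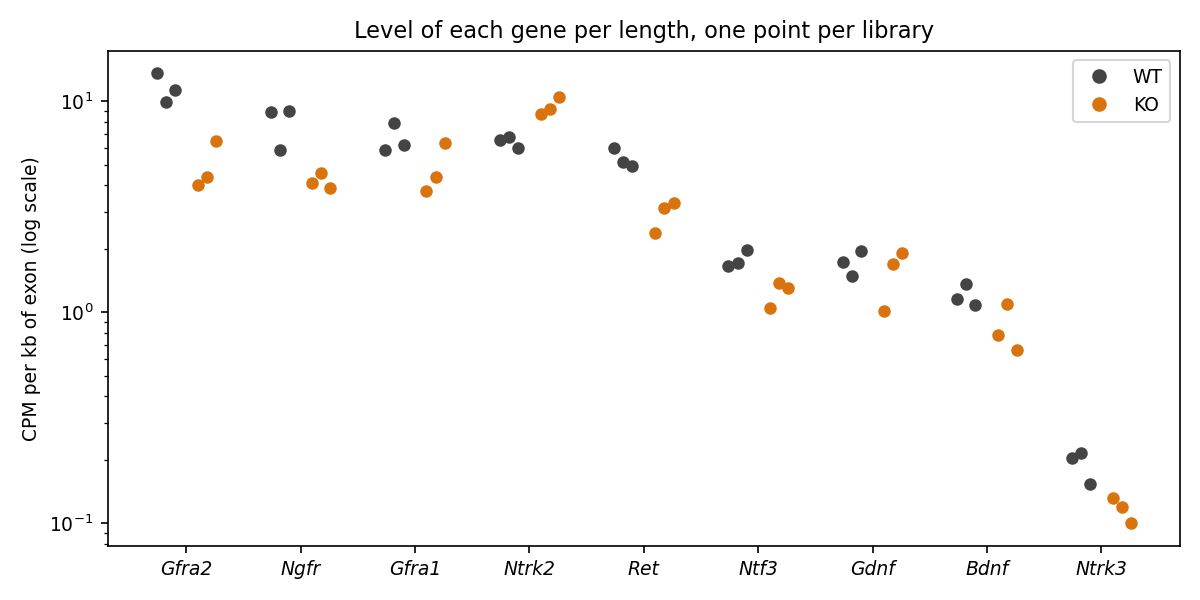
Level per length (CPM per kilobase of exon, log axis) of the 9 genes, ordered by the WT mean, with 1 point per library (WT grey, KO orange). Gfra2 stands first in WT (mean 11.6) and Ntrk2 first in KO (mean 9.48), and Ntrk3 stands last in both.

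Further along the pathway, calls are set beside the shares over all tested genes. The quasi-likelihood test called 4.38% of tested genes higher and 2.09% lower. The exact test called 7.65% higher and 7.68% lower, and DESeq2 called 9.5% higher and 7.61% lower. Whether the pathway lists differ from these shares was not tested. Of 29 tested adaptors and first kinases of the Trk and RET pathways, 0 were called in either direction by edgeR's quasi-likelihood test and 4 (Grb10, Gab1, Dok5 and Nras) by its exact test or DESeq2, 8 of the 29 had an unadjusted p under 0.05 (29.6% of all tested genes did), and the median log2 fold change was -0.14. Their summed level was close in the genotypes, at 2219.5 to 2299.9 CPM in WT and 2235.4 to 2313.4 CPM in KO. Of 9 tested partners of p75 and of 6 tested convertases and proteases that cut proneurotrophins, 0 were called by the quasi-likelihood test, with medians of -0.12 and -0.08. The exact test and DESeq2 each called 2 of the partners (Traf6 and Rtn4r) and 1 of the proteases (Mmp3), and 4 and 1 had an unadjusted p under 0.05. Of 13 tested genes known to be induced by Trk or RET signalling, 1 was called. Arc, an immediate early gene that neurotrophins induce in neurons, had 10.8, 7.23 and 7.60 CPM in WT1, WT2 and WT3 and 67.2, 81.7 and 50.4 CPM in KO1, KO2 and KO3 (7.76-fold, log2 fold change 2.96 ± 0.24, edgeR adjusted p = 0.00027). The quasi-likelihood test called 0 of the other 12 tested genes of that list, 4 of which had an unadjusted p under 0.05, and the exact test and DESeq2 each called 1 of them, Spry4, lower. Egr1 had a log2 fold change of 0.09 ± 0.22 and Dusp6 of 0.11 ± 0.13, and Spry4, an inhibitor of the Ras pathway, had -0.78 ± 0.22 (edgeR quasi-likelihood adjusted p = 0.074, range 0.023 to 0.11 over the 8 alternatives). In the whole set of 6 pathway lists, 2 genes were called lower and 2 higher by the quasi-likelihood test, and 10 lower and 5 higher by edgeR's exact test.

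The receptors described here mark several cell types, and in whole tissue fewer cells of a type and less RNA per cell cannot be told apart. Over all tested genes, 7801 of 15009 had negative log2 fold changes and 29.6% had an unadjusted p under 0.05. The shares called by each test are those given for the pathway lists. Whether any marker list differs from these shares was not tested. Keratin genes of the epidermis were abundant in every library, among them Krt14, Krt5, Krt10 and Krt1, as were muscle genes such as Ttn and Acta1 and hair follicle keratins such as Krt71 and Krt25. Of 15 listed sensory neuron markers 14 were in the table and 6 were tested. Tubb3, a tubulin of neurons, had 28.2 to 44.0 CPM, Stmn2 4.93 to 8.84 CPM and Isl1 4.98 to 8.71 CPM over the 6 libraries. Other markers of the list, such as Calca (0 to 0.256 CPM), Scn10a (0 to 0.0329) and Prph (0 to 0.229) were at or near 0. The 6 tested genes all had negative log2 fold changes (median -0.38), 0 were called by edgeR or DESeq2, and 3 had an unadjusted p under 0.05. The summed level of the list was 52.7 to 64.4 CPM in WT and 46.5 to 53.0 CPM in KO. Tubb3 was the largest part of that sum, which therefore says little of the markers at or near 0. Of the 13 tested Schwann cell markers 10 had negative log2 fold changes and 0 were called by the quasi-likelihood test, with a median of -0.36. The exact test and DESeq2 each called 1, Pmp22, and 5 had an unadjusted p under 0.05. Their summed level was 623.5 to 652.9 CPM in WT and 507.7 to 601.5 CPM in KO, without overlap. The myelin gene Pmp22 had a log2 fold change of -0.71 (edgeR adjusted p = 0.088), whereas Erbb3, the neuregulin receptor, had 0.28 (0.19). Mbp, another myelin gene, had -0.36 (0.18).

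The summed skeletal muscle and hair follicle markers, like Gfra2, Ngfr and Ret, were lower in every KO library than in any WT library. So were the summed Schwann markers given above. The same held for the pericyte and smooth muscle sum (404.7 to 433.9 CPM in WT, 238.7 to 351.9 CPM in KO). It also held for the mast cell sum (198.3 to 254.6 CPM in WT, 144.1 to 191.0 CPM in KO). Of 14 tested muscle markers 3 were called lower (Tnnt3, Tnni2 and Pvalb, genes of fast muscle fibres) by the quasi-likelihood test and 11 by the exact test or DESeq2. All 14 had negative log2 fold changes (7801 of all 15009 tested genes did) and an unadjusted p under 0.05 (29.6% did), with a median of -1.03. Their summed level was 16032.9 to 21574.2 CPM in WT and 7510.8 to 12820.0 CPM in KO. KO3 was the highest KO library there, as it was for Gfra2, Ret, Gfra1 and Gdnf, and for Ntrk2, which was higher in KO. KO3 was also highest for the hair follicle, dermal papilla, fibroblast, Schwann, endothelial, pericyte and smooth muscle, mast cell, macrophage and basal keratinocyte sums. It was the lowest KO library for Ngfr, Bdnf and Ntrk3 and for the sensory neuron, Merkel, melanocyte, suprabasal and wound sums. For Ntf3 it lay between KO1 and KO2. Of 13 tested hair follicle markers 2 were called lower (Shh, a signal of the follicle matrix, and Hoxc13, a regulator of hair keratins) by the quasi-likelihood test, 4 by the exact test and 6 by DESeq2, 12 had an unadjusted p under 0.05, and the median was -0.54, at 5611.1 to 6956.4 CPM in WT and 3713.8 to 4798.9 CPM in KO. Of the 8 dermal papilla markers 1 was called lower (Wif1) and 1 higher (Sostdc1), and their median was -0.40 although their summed level, most of it Sostdc1, was 167.9 to 242.9 CPM in WT and 258.4 to 364.6 CPM in KO. The 12 dermal fibroblast markers had a median of -0.57 with 0 called by the quasi-likelihood test, 2 by the exact test or DESeq2 (Thy1 and Mfap5) and 5 with an unadjusted p under 0.05, and their summed level in KO3 (7068.2 CPM) lay inside the WT range (6788.3 to 8784.8 CPM), while KO1 and KO2 had 2995.4 and 3763.5 CPM. KO3 lay inside the WT range for Gfra1 as well, and for the endothelial and macrophage sums.

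In the epidermis the basal keratinocyte markers had a median of -0.04, with log2 fold changes from -0.36 to 0.34 of which 4 were negative and 3 positive, and with 0 of 7 called by edgeR and 1 by DESeq2, 2 with an unadjusted p under 0.05, and 10203.7 to 12053.5 CPM in KO against 10798.4 to 11788.3 CPM in WT. Of the 9 suprabasal markers 1 was called higher (Ivl) by the quasi-likelihood test, 4 by the exact test and 5 by DESeq2, with a median of 0.64 and summed levels of 20556.2 to 25057.0 CPM in WT and 31553.0 to 48193.7 CPM in KO. Of the 6 wound keratinocyte markers 1 was called higher (Krt16) by the quasi-likelihood test and 2 by the exact test or DESeq2, with a median of 1.48 and summed levels of 3847.7 to 5509.9 CPM in WT and 5793.3 to 8959.3 CPM in KO. The medians and sums of the suprabasal and wound lists were thus higher in KO, as were Ntrk2 and Artn, while 1 of the 9 suprabasal markers (Lor) had a negative log2 fold change of -0.32. In KO1, KO2 and KO3 the suprabasal sum was 48193.7, 41189.9 and 31553.0 CPM. The wound sum was 8959.3, 7031.3 and 5793.3 CPM. Ntrk2 had 168, 177 and 203 CPM and Artn 7.62, 9.21 and 10.4 CPM in the same libraries. The labels give the replicate numbers no order, and whether these genes vary with the lists was not tested. Among the remaining lists, the quasi-likelihood test called 0 genes for Merkel cells (median -0.53 of 3 tested), endothelium (-0.41 of 9), melanocytes (-0.37 of 5), mast cells (-0.57 of 5) and macrophages (-0.14 of 7), and Tagln was called lower among 7 pericyte and smooth muscle markers (-0.53). Unadjusted p-values under 0.05 numbered 1, 3, 0, 3 and 2 in the lists with 0 calls, in that order (29.6% of all tested genes had one). The exact test called 0, 1, 0, 2 and 0 of their genes and DESeq2 0, 1, 0, 1 and 0. The part of tissue composition in the receptor differences was not tested.

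**Figure D4:**
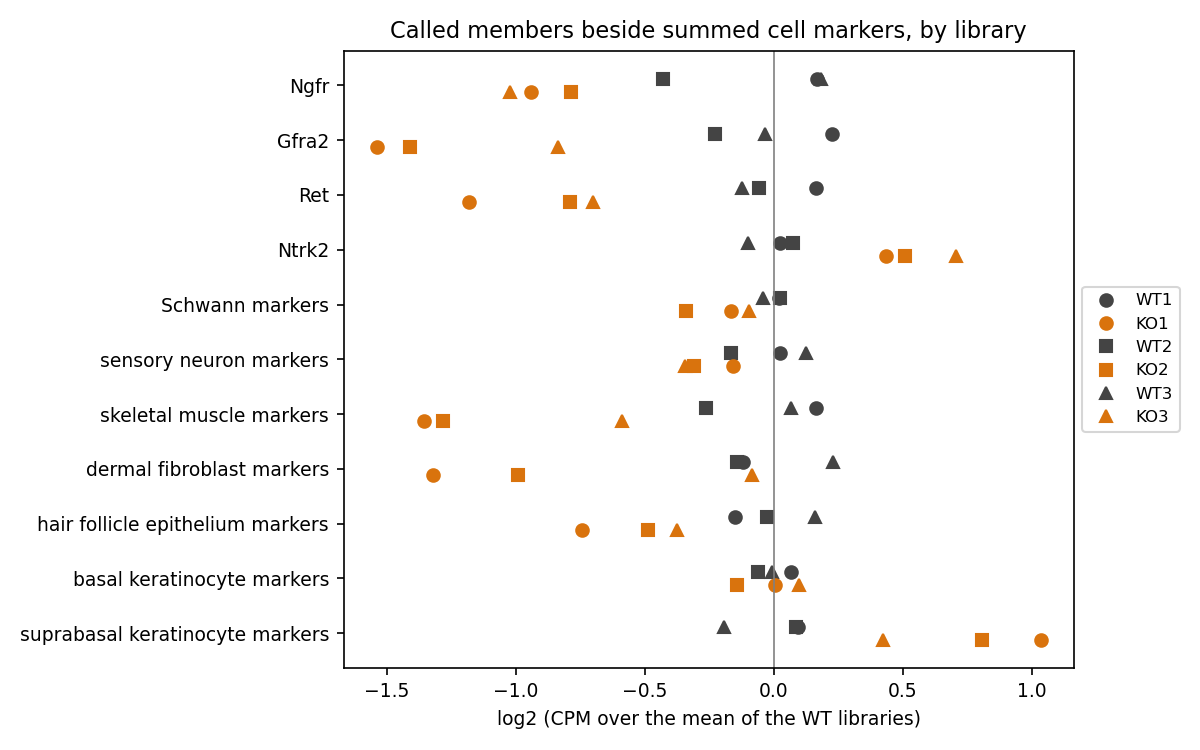
Log2 of the level over the WT mean in each library (circle, square and triangle for replicates 1, 2 and 3, WT grey, KO orange) for the 4 called receptors and for the summed CPM of 7 cell marker lists. Gfra2, Ngfr and Ret lie left of 0 in all KO libraries, as do the skeletal muscle, hair follicle, Schwann, sensory neuron and dermal fibroblast markers. Ntrk2 and the suprabasal markers lie right of 0 in all KO libraries, and the basal markers straddle it.

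For each of the 9 genes, the pair of tested genes nearest to it in pattern was found from the root mean square (RMS) difference of log2 CPM over the 6 libraries, each gene centred on its own mean. The nearest to Gfra2 were Mustn1 (RMS 0.033) and Pvalb (0.089), where the RMS of Gfra2 itself about its mean was 0.67. Pvalb also stands in the skeletal muscle list. The nearest to Ret were Shisa2 (0.042) and Trim55 (0.060), and those to Ngfr were Neurl2 (0.11) and St8sia2 (0.11). Ntrk2 was nearest to Cd83 (0.046) and Fam212b (0.057), and Ntrk3 to 4930516B21Rik (0.055) and Crispld1 (0.066). Bdnf was nearest to Homer2 (0.049) and Zfr2 (0.066), and Ntf3 to Nrg2 (0.044) and Krt27 (0.045), a keratin of the hair follicle list. Gfra1 was nearest to Pcdhb14 (0.064) and Rab6b (0.068), and Gdnf to Exoc3l2 (0.056) and Map10 (0.072). These matches rest on 6 libraries and are a description only.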

How the data were processed

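RNA was taken from the top lip of 3 KO and 3 WT mice, 1 library each. The authors mapped paired reads to GRCm38 with TopHat2 2.0.8 and Bowtie2 2.1.0 and counted uniquely assigned reads per gene with HTSeq (version not given in the sources used here). The deposited values are whole-number counts without normalization, and the strand setting is not stated. Genes that reached 1 CPM in 3 or more libraries (15009 of 26814) were tested with edgeR 4.0.16 in R 4.3.3 (TMM scaling, which the printed CPM include, and the quasi-likelihood test with legacy=FALSE, in place of the exact test the authors used). P-values were adjusted by Benjamini-Hochberg over these genes, and calls were made under 0.05. Alternatives used limma 3.58.1, DESeq2 1.42.0, other scalings and filters, a replicate block and left-out libraries. Exact permutation tests used scipy 1.17.1. Lengths and positions came from GENCODE M21 and upstream sequences from RefSeq, both GRCm38. Low-count limits cover counting error only.

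The genes named are the 9 members, Gtf2ird1, other ligands and receptors of both families, called pathway genes, up to 4 of the most abundant markers of each cell list, and the 2 genes nearest to each member in pattern. Egr1, Dusp6, Spry4, Lor, Tubb3, Stmn2, Isl1, Calca, Scn10a, Prph, the called markers and the list genes called only by other tools were named beyond this rule, after their values had been seen. The members and lists were chosen with earlier results of these data known. Ntn1 was taken out of the p75 partner list after its value had been seen, because it is not a partner of p75. It had not passed the test. Some genes of the lists are not reported here and were left out of the list counts. The fit was tested on simulated data, with changed genes of known fold.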

Additional observations from a re-analysis of the deposited data

How the results depend on the processing

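The directions of the 9 log2 fold changes held under all alternatives run, except Gdnf, which ranged from -0.33 to 0.13 over the left-out libraries and was positive without KO1. The counts of called genes moved more, and the cause was not tested. Of the 9 genes, edgeR's exact test, DESeq2 and an adjusted p under 0.1 each called 4 lower and 1 higher. Scaling by library size alone, no filter and at least 10 counts in every library called 3 lower and 0 higher. With 1 library left out, 0 to 4 were lower and 0 to 1 higher. Across all genes, where 314 were lower and 657 higher, the exact test gave 1152 and 1148 (49.9% higher, against 67.7%), DESeq2 1142 and 1426 (55.5%), an adjusted p under 0.1 1281 and 1248, DESeq2's size factors 207 lower (76.2% of calls higher), no filter 204 lower (81.8%), and at least 10 counts 204 lower. Leaving out 1 library gave 18 to 2395 lower and 208 to 2496 higher, the highest counts without KO3. No scaling moved the median of all genes by over 0.1. For the pathway lists (2 lower and 2 higher), the exact test and DESeq2 gave 10 lower and 5 higher, DESeq2's size factors and at least 10 counts 1 lower, no filter 0 lower, and left-out libraries 0 to 18 lower and 2 to 6 higher. For the cell markers (7 lower and 3 higher), the exact test gave 24 and 7, DESeq2 25 and 9, limma-voom 5 higher, no filter 6 higher, and left-out libraries 0 to 57 lower and 0 to 10 higher.

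The labels give same-numbered libraries nothing in common but the number. Their deviations from the group means correlated at -0.19, 0.29 and 0.31 over genes. WT1 and WT2 correlated best with a KO library of another number, and WT3 with KO3. These correlations cannot show whether libraries of the same number were prepared together. With the replicate block, 1 of the 9 genes was called lower (Gfra2) and 0 higher, the calls of Ngfr (edgeR adjusted p = 0.062), Ret (0.052) and Ntrk2 (0.070) being lost, the pathway lists gave 0 lower, 5 cell markers were higher, and 217 genes were lower and 580 higher in all.

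The members with the fewest counts were Ntf3 (35 to 78 per library) and Ntrk3 (66 to 169).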
